A study of Drosophila melanogaster with 3 samples.

Results

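Chromosome 4 of Drosophila melanogaster held 365 of the 30000 candidate regions in the list that the authors made from pooled replicates of a ChIP-seq experiment on the coregulator Snoo. They were taken as every region of that list on chromosome 4 of the dm6 build, and the 24 that were also in the list past a threshold on the irreproducible discovery rate (the IDR list, which holds 22.1% of all candidates) were marked. The other 341 were candidates only, because the authors' lists hold peaks together with background regions by design. The samples were whole pupae, pooled males and females of unknown age, from 1 line carrying the snoo-MiMIC insertion, in which an eGFP exon inside an intron gives a Snoo-eGFP fusion. All samples carried this fusion and were precipitated with an antibody against GFP after sonication. They formed 1 group of 3 biological replicates, numbered 3, 5 and 6. No control library was analysed here, and the sources used here do not give how many animals went into a replicate.

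Snoo belongs to the Ski and SnoN family of coregulators, which bind Smad proteins and shape the output of TGF-beta signalling. Chromosome 4 is the dot chromosome, a small autosome rich in mobile elements whose active genes lie within chromatin marked by the heterochromatin protein HP1a and by POF, a protein specific to this chromosome. It carries genes of 3 TGF-beta ligands (myo, Actbeta and mav) and the gene fuss, a relative of snoo in the Ski family.

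The sequences below show what these regions look like at both ends of the list and at the genes of the TGF-beta pathway. They are windows of 201 bp centred on the summit, read 5′ to 3′ on the plus strand of the RefSeq genome of the dm6 build. The first 3 are the IDR regions of highest signal, the next 4 are the best-ranked candidates of myo, Actbeta, mav and fuss, and the last 2 are the best-ranked candidate outside the IDR list, upstream of Slip1, and the lowest-ranked candidate of all, in an intron of PMCA. Capitals mark matches, on either strand, to 12 short motifs.
Cals 3′ UTR, chr4:1113256-1113456: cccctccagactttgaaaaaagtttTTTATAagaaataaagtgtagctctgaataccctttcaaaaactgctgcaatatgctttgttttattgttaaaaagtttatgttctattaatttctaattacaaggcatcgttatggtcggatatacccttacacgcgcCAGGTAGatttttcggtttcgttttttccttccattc
RpS3A, chr4:67139-67339: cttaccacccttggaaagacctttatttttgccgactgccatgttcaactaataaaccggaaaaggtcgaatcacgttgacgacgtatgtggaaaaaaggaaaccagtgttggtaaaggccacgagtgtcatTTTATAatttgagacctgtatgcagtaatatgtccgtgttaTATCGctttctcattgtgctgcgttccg
PlexA, chr4:1027159-1027359: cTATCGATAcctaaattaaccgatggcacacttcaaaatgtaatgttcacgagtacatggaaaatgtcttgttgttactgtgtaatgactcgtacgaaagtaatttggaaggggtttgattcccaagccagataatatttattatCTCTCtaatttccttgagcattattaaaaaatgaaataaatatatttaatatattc
myo, chr4:695180-695380: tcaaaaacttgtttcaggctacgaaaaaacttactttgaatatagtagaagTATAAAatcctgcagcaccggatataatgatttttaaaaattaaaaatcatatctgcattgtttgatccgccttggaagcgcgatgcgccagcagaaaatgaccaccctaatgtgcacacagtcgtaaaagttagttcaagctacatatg
Actbeta, chr4:1084425-1084625: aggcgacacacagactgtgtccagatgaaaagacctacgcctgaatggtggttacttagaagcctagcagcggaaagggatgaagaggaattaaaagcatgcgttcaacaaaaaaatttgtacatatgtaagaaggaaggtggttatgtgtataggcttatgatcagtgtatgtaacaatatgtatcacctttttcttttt
mav, chr4:626084-626284: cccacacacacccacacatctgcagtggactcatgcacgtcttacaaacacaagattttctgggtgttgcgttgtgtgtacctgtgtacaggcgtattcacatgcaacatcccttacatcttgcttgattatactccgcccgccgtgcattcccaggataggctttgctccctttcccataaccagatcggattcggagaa
fuss, chr4:974625-974825: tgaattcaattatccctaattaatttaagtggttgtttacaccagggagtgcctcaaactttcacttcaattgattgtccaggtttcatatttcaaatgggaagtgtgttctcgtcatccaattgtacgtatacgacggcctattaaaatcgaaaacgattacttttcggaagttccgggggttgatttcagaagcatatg
Slip1, chr4:663366-663566: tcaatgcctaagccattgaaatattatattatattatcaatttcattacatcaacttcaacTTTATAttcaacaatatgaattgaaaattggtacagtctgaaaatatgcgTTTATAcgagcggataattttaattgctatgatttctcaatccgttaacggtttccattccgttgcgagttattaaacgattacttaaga
PMCA intron, chr4:343222-343422: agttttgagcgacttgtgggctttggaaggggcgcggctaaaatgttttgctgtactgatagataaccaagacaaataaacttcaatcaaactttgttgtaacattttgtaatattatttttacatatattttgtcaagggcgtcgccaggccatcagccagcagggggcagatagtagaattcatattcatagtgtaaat

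The 3 strongest windows held between 2 and 4 motif matches each. The PlexA window began with the letters of the DNA replication-related element, TATCGATA, which contain those of the shorter BEAF-32 core, CGATA. The myo window held 1 match to the TATA box letters, TATAAA, and the Slip1 window held 2. The windows at Actbeta, mav, fuss and PMCA held none of the 12 motifs, which says only that these letters are not in those 201 bp.

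In the pooled list, candidates were somewhat denser on chromosome 4 than elsewhere, and they were weak. Of the replicate lists, only that of replicate 6 was denser there than on the other arms. The arm is 1348131 bp long, 1.01% of the sequence searched, and held 1.22% of the candidates, or 271 per Mb against 224 per Mb on the other arms. Only 24 of the 365 were in the IDR list, which is 6.58% (exact 95% Clopper-Pearson interval 4.26 to 9.63%) against 22.1% of all candidates and 22.3% (21.8 to 22.8%) of the 29635 on the other arms. These intervals cover counting error only, over regions that are not independent. The shares of the large arms lay between 21.6% on 2L and 22.9% on 3R, so none of them came near the value of chromosome 4. Per length, the IDR list held 17.8 regions per Mb on chromosome 4 and 49.9 per Mb on the other arms.

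Ranked by the authors' signal, where 1 is the strongest of the pooled list, the 365 candidates had a median rank of 20120 (quartiles 13534 and 25640) and the others a median rank of 14927. The best stood at rank 744 and the last at rank 29930. Their signal, in the units of the authors' peak caller, had a median of 40.4 (23.6 to 587), against 56.9 on the other arms. Below rank 15000 of the 30000 lay 256 of them, or 70.1%. The q-value stood at the best value of the list in 45 candidates (12.3%), compared with 31.3% on the other arms. On every arm, the IDR list held as many regions as a cut of the pooled list by signal at the same length. The IDR list thus matches a cut by signal. The IDR share, the ranks and the signals of chromosome 4 are therefore readings of the same ranking and not separate results. On chromosome 4 the q-value fell in nearly the same order. Close values on either side of the threshold follow from this. The last chromosome 4 region inside the IDR list had a signal of 130 at rank 6499. The first outside had 127 at rank 6673.

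**Figure D1:**
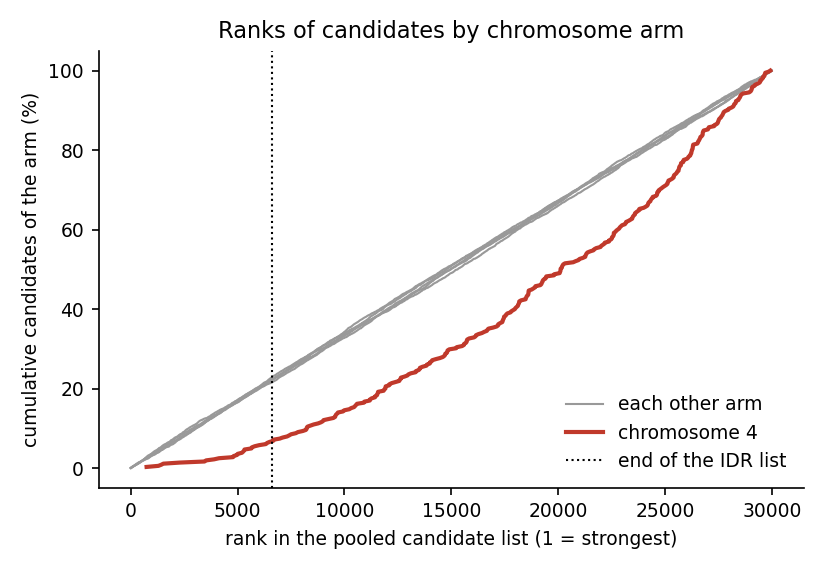
The x axis gives the rank in the pooled candidate list and the y axis the cumulative percentage of an arm's candidates up to that rank, with 1 line for each arm and a dotted line where the IDR list ends. The line of chromosome 4 runs below the 5 other lines, which lie close together, and reaches 6.58% at the dotted line.

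The low share past the authors' threshold was also seen within each replicate. The strongest regions of a replicate were taken as the top of its own list, as many as the IDR list holds. Among these, replicate 3 placed 22 of its 189 chromosome 4 candidates (11.6%), replicate 5 placed 25 of 277 (9.03%) and replicate 6 placed 33 of 523 (6.31%), so the number was highest where the share was lowest. On the other arms these shares were 22.2%, 22.2% and 22.4%, so chromosome 4 was lower in 3 of 3 replicates. The difference was -13.3 ± 2.78 percentage points (SD, n = 3; exact sign-flip permutation test over replicates, two-sided, p = 0.25, the smallest p that 3 replicates allow). The median rank within its own list was 16107 in replicate 3, 18638 in replicate 5 and 18797 in replicate 6, against 14996, 14962 and 14908 on the other arms (the same exact test, p = 0.25). The shares and median ranks of the other arms are nearly fixed, since these arms hold almost the whole of each list.

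The replicates differed in how many candidates they placed on chromosome 4. Replicate 3 listed 189 (140 per Mb), replicate 5 listed 277 (205 per Mb) and replicate 6 listed 523 (388 per Mb), although every list held 30000 regions. On the other arms together the 3 lists held 222 to 225 per Mb. This narrow range is set by the fixed list length, since these arms hold nearly all regions that are not on chromosome 4. Chromosome 4 was thus below the other arms in replicates 3 and 5 and above them in replicate 6, and the mean difference of 20.7 ± 130 per Mb (SD, n = 3; exact sign-flip permutation test, two-sided, p = 1) did not exceed the spread between replicates. Among the large arms the X chromosome varied most, with 197 per Mb in replicate 3 and 233 per Mb in replicate 5. The part of sequencing depth in these counts was not tested, since the files give no read numbers.

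**Figure D2:**
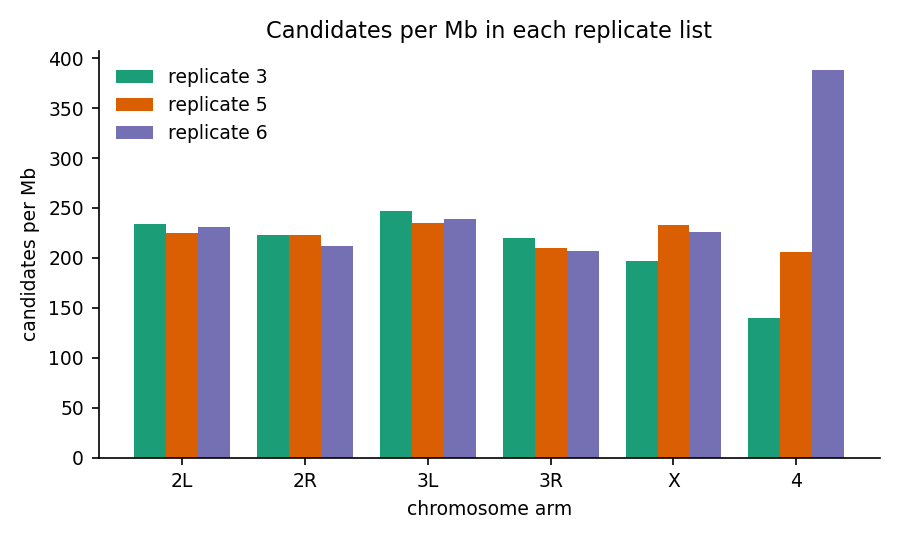
Bars give candidates per Mb (y axis) on each chromosome arm (x axis) in the list of each replicate, with colours for replicates 3, 5 and 6. On chromosome 4 the bars stand at 140, 205 and 388 per Mb, and on the large arms they stay close to each other.

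The excess of replicate 6 lay away from gene starts. Within 1000 bp of an annotated start the replicates held similar numbers of chromosome 4 candidates: 131 in replicate 3, 143 in replicate 5 and 169 in replicate 6. Farther away they held 58, 134 and 354. The share near starts was therefore 69.3% in replicate 3, 51.6% in replicate 5 and 32.3% in replicate 6, whereas on the other arms it was 43.2%, 44.9% and 42.4%. Of the 523 candidates of replicate 6, 282 (53.9%) had no pooled candidate within 150 bp, and 18.4% of those 282 lay near a start. In replicate 3, 78 of 189 (41.3%) had no pooled counterpart, and 73.1% of these were near a start. On the large arms, 28.2 to 35.7% of the regions of replicate 3 and 30.2 to 33.8% of those of replicate 6 had none. Of such unmatched regions on the other arms, 38.8% in replicate 3 and 39.1% in replicate 6 lay near a start.

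**Figure D3:**
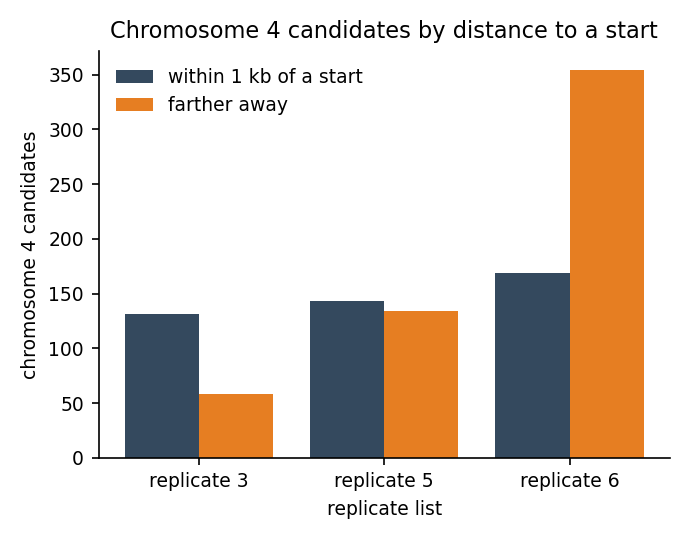
Bars count the chromosome 4 candidates (y axis) in the list of each replicate (x axis), split into those with a summit within 1000 bp of an annotated start and those farther away. The dark bars are 131, 143 and 169, and the orange bars are 58, 134 and 354.

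Recovery of the 365 pooled candidates followed the same order of replicates. A summit within 150 bp was found for 111 (30.4%) in replicate 3, for 179 (49.0%) in replicate 5 and for 244 (66.8%) in replicate 6, compared with 66.5%, 68.3% and 68.0% of the candidates on the other arms. All 3 replicates held 50 of them, or 13.7% (10.3 to 17.7%), against 38.3% elsewhere. Neighbouring candidates can match the same summit of a replicate and were then each counted as found. A pair of replicates held 104 (28.5%), a single replicate held 176 (48.2%) and none held 35 (9.59%). On the other arms these shares were 31.2%, 25.4% and 5.10%. Of the 176, 113 were found in replicate 6 alone, 45 in replicate 5 alone and 18 in replicate 3 alone. These are 31.0%, 12.3% and 4.93% of the 365, against 10.2%, 7.75% and 7.40% of the candidates elsewhere. The density of a list bears on these shares, since 3.99%, 6.00% and 11.3% of the arm lay within 150 bp of a summit of replicates 3, 5 and 6.

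Weaker candidates were recovered less often on chromosome 4 and elsewhere, so the shares were also read by wide bins of pooled rank. Candidates of the other arms, weighted to the rank bins of the 365, would have been found at 55.3% in replicate 3, 57.1% in replicate 5 and 56.8% in replicate 6. In all 3 they would have been found at 21.5%. Chromosome 4 thus lay below that value in replicates 3 and 5, above it in replicate 6 and below it for all 3 together. The weighting does not adjust for how many summits a replicate listed on chromosome 4. Those numbers, 189, 277 and 523 in replicates 3, 5 and 6, rise in the same order as the recovery, so the comparison cannot separate recovery from list density. Between ranks 20001 and 25000, replicate 3 held 13.6% of the chromosome 4 candidates and 41.2% of the others, while replicate 6 held 70.4% and 46.9%. Within the IDR list, 17 of 24 (70.8%, 48.9 to 87.4%) were found in all 3 replicates, against 92.0% of the IDR regions elsewhere. This last comparison is not at equal rank, since the 24 had a median rank of 4990.5 and the IDR regions elsewhere one of 3310. The part of rank in it was not tested. The IDR list is also the first of the bins, so the weighted values carry this imbalance too. Here the 24 were missed mainly by replicate 3, which held 19, while replicates 5 and 6 held 23 each.

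**Figure D4:**
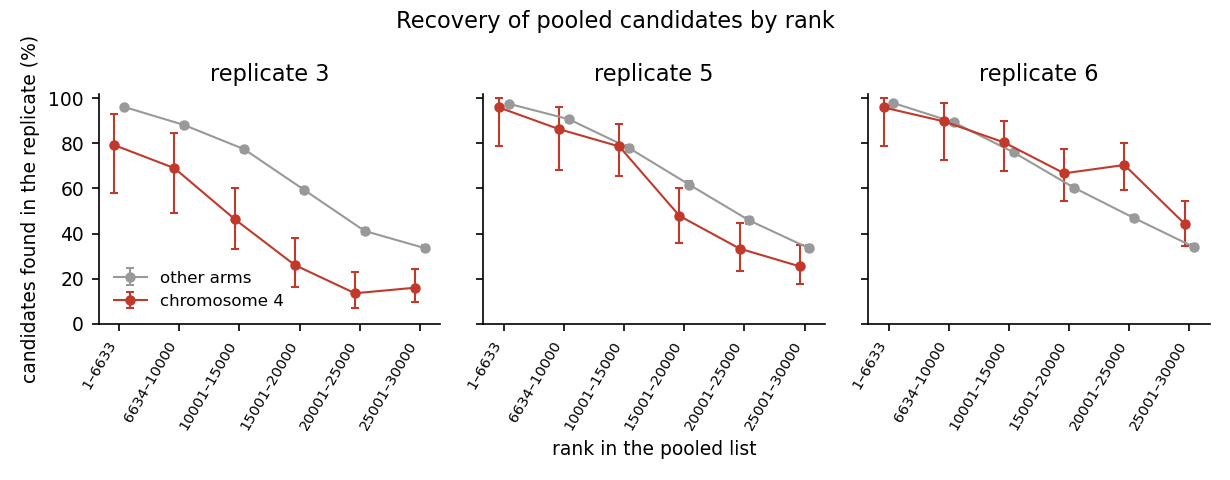
For each replicate, points give the percentage of pooled candidates with a summit within 150 bp in that replicate (y axis) by bins of rank in the pooled list (x axis), with exact 95% intervals. Chromosome 4 (red) lies below the other arms (grey) in replicate 3 in every bin, from 79.2% against 96.1% in the first bin to 13.6% against 41.2% at ranks 20001 to 25000, and above them in replicate 6 in every bin after the first.

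The strongest region of the chromosome lay at the 3′ end of 2 genes and not at a start. It had a signal of 587 at chr4:1113153-1113506, with its summit in the 3′ UTR of Cals, which encodes a calsyntenin, a cadherin-related membrane protein of synapses, and its interval also overlapped the 3′ end of sv, the Pax2 family gene shaven. The nearest start, of Cals, was 9609 bp away. Its rank was 422 in replicate 3, 834 in replicate 5 and 1076 in replicate 6, the best of any chromosome 4 candidate in replicate 3. The next was at RpS3A, a protein of the small ribosomal subunit, with a signal of 428 and its summit 32 bp upstream of the start. It ranked 2691, 1008 and 1249 in replicates 3, 5 and 6. The third was at PlexA, a receptor for semaphorins in axon guidance, with a signal of 401 at 158 bp upstream, and it ranked 6168, 1847 and 902.

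These 3, an intergenic region 1257 bp upstream of the long noncoding RNA lncRNA:CR43437, a region at gw, a region at myo and a region at MED26 were the 7 that stood among the strongest regions of all 3 replicates. They make up 29.2% of the 24 IDR regions, against 54.6% of the IDR regions on the other arms, a comparison not made at equal rank. The intergenic region had a signal of 383 and ranked 2129, 1605 and 1486. The gene gw encodes GW182, which acts with Argonaute in silencing by miRNAs, and its upstream region had a signal of 290 with ranks of 987, 2437 and 4372. MED26 encodes a subunit of the Mediator complex, and its region at 22 bp downstream of the start had a signal of 146 with ranks of 4132, 5956 and 4894.

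Gene starts accounted for most of the IDR regions. Of the 24, 20 (83.3%, 62.6 to 95.3%) lay within 1000 bp of a start and 14 (58.3%) within 150 bp. Away from starts, 3 were intergenic, 1 was exonic and 0 lay in an intron, which allows a share of up to 14.2%. Among the IDR regions of the other arms, 53.7% lay within 1000 bp of a start and 25.7% within 150 bp. Introns away from starts held 31.7% of them, intergenic sequence 13.3% and exons 1.29%. The remaining starts belonged to genes of varied function, among them pho, which encodes a DNA-binding protein of the Polycomb group (signal 168), Sox102F, a Sox-family transcription factor (197), CaMKI, a calcium and calmodulin dependent kinase (154), Zyx, the focal adhesion protein zyxin (147), Arl4, a small GTPase (188), and ATPsynbeta, a subunit of the mitochondrial ATP synthase (130). Asator, a kinase of the tau tubulin kinase family, had a pair of regions at 163 and 162. The others were at CG46466 beside Slip1 (212), anne (155), CG32017 beside Kif3C (139), CG31999 (133) and Gyf (132), with a second region at gw (143) and a second at myo (157). The intergenic regions were completed by one 3920 bp upstream of zfh2, a zinc finger and homeodomain factor (156), and one 3776 bp upstream of mir-9385 (168).

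Agreement between replicates was uneven among these 24. The region at pho ranked 17801 in replicate 3 and 4859 and 4148 in replicates 5 and 6. The region upstream of zfh2 ranked 18066 in replicate 3 and 5188 and 4436 in the others. The region at Sox102F was missed by replicate 5 and that at ATPsynbeta by replicate 6. Replicate 3 missed the regions at CG46466, anne, CG32017, CG31999 and Gyf. The one at CG31999 was the only IDR region of the chromosome that stood among the strongest regions of no replicate, with ranks of 6647 in replicate 5 and 12492 in replicate 6.

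**Figure D5:**
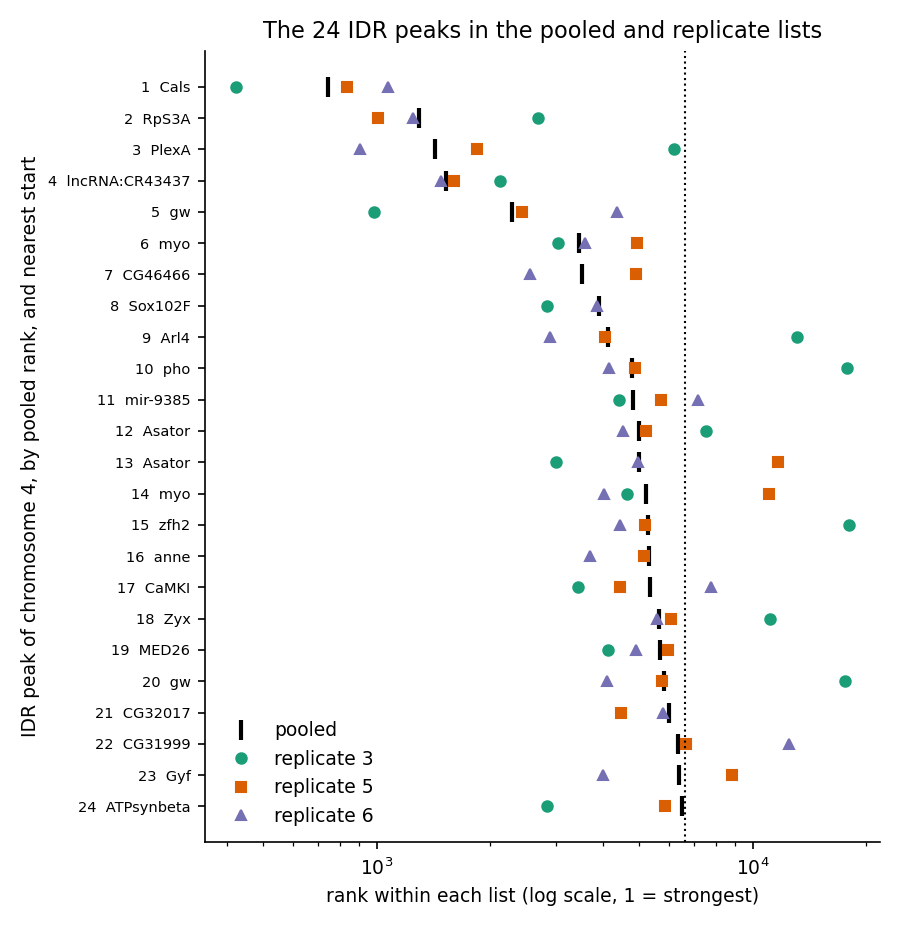
Each row is 1 of the 24 IDR regions of chromosome 4 in the order of pooled rank, named by the nearest start, and the x axis is the rank in each list on a log scale. Black bars mark the pooled rank, coloured symbols the replicates, a missing symbol a region not found within 150 bp, and the dotted line the number of regions in the IDR list. Of the 19 regions found in replicate 3, 13 lie left of the dotted line, as do 19 of 23 in replicate 5 and 20 of 23 in replicate 6.

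The 5 best candidates outside the IDR list resembled those inside it in place. They lay 155 bp upstream of Slip1 (signal 127), 92 bp upstream of a start of pan (127), in an intron of asRNA:CR43957 at 1919 bp from ci (123), 217 bp upstream of PIP4K (120) and 113 bp upstream of a start of CaMKII (117). The protein of pan is TCF, the DNA-binding effector of Wnt signalling, and ci encodes the effector of Hedgehog signalling. The 5 lowest had signals of 23.6 to 23.9 and lay in coding exons of CG32017 and lgs, in introns of Tdg and PMCA, and within 895 bp of the start of lncRNA:CR44440. None of these 5 was found in replicate 3, and the one in CG32017 was found in no replicate.

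Over all 365, 165 (45.2%, 40.0 to 50.5%) lay within 1000 bp of a start, 99 (27.1%) in introns, 51 (14.0%) in exons and 50 (13.7%) in intergenic sequence, each class away from starts after the first. On the other arms these shares were 41.9%, 38.9%, 3.84% and 15.4%. Exons away from starts make up 26.3% of chromosome 4 and 15% of the other arms, and sequence within 1000 bp of a start makes up 18.5% and 23.6%, so on both the candidates near starts exceeded the share of such sequence. Of the 51 exonic summits, 31 lay in coding sequence, 15 in 3′ UTRs, 1 in a 5′ UTR and 4 in exons without either. The exonic candidates ranked low, with a median rank of 24318, as did the other classes away from starts. Their median ranks were 23548 in introns and 21886.5 in intergenic sequence. Of the exonic candidates, replicate 3 held 2, replicate 5 held 21 and replicate 6 held 34. Candidates within 150 bp of a start had a median rank of 11560, and 36, 51 and 46 of the 62 were found in replicates 3, 5 and 6.

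Mobile elements cover 24.8% of chromosome 4 and 5.74% of the other arms in this annotation. Summits fell in them 49 times on chromosome 4 (13.4%, 10.1 to 17.4%), below the elements' share of the arm, and in 0.412% of the candidates elsewhere. Of the 24 IDR regions 0 had a summit in an element, which allows a share of up to 14.2%, against 0.151% of the IDR regions elsewhere. For the 49, the highest signal was 98.0 and the median rank was 22381. The elements named INE-1, a short element found in 344 copies here, held 30 of the summits, and the transposon 1360 held 6. Replicates 3, 5 and 6 held 11, 21 and 33 of the 49, and all 3 held 3. The sources used here do not say how the authors treated reads that fit several copies, so signal in elements is uncertain.

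Candidates were spread along the arm from the summit at 42885 to that at 1234938, with a few long gaps. The largest ran over 81772 bp, from 703893 to 785665, and contained the whole of bt, which encodes the giant muscle protein projectin, and most of ey, the Pax6 gene of eye development. A second gap of 62371 bp, from 243554 to 305925, held dpr7, RhoGAP102A and NfI. In all, 9 of the 80 protein-coding genes had no candidate in the body or within 1000 bp of it: JYalpha, CG32006, dpr7, RhoGAP102A, NfI, CG1909, onecut, bt and fd102C. Across these 9 genes the replicate lists held 0, 2 and 28 candidates in replicates 3, 5 and 6, with 8 of those of replicate 6 at bt. At the other extreme stood zfh2 with 17 candidates over 39065 bp, Asator and Sox102F with 14 each, and Cals with 12.

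Gene by gene, 67 of the 80 protein-coding genes (83.8%, 73.8 to 91.1%) had a candidate within 1000 bp of a start, against a background of 50.1% over all arms. For IDR regions the count was 21 of 80 (26.3%, 17.0 to 37.3%) against a background of 25.3%, and the interval holds the background. Candidates of chromosome 4 were thus less often in the IDR list than those of other arms, while the share of its genes with an IDR region at a start lay near that of all genes.

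Of the 4 genes of the TGF-beta and Ski group, 3 had a candidate near a start and 1, myo, an IDR region there. These shares lie near the 83.8% and 26.3% of all protein-coding genes of the chromosome, so they are not a result about the group, which is described for its link to Snoo. The group held 13 candidates. The gene myo encodes myoglianin, a ligand of the myostatin type, and all 3 of its candidates were found in all 3 replicates. The stronger IDR region, 775 bp downstream of the start within the 5′ UTR, had signals of 66.8, 54.9 and 98.1 in replicates 3, 5 and 6 and ranked 3041, 4941 and 3579. The other IDR region, 15 bp upstream, ranked 4628, 11030 and 4035, so both were among the strongest regions of replicates 3 and 6 and 1 of them among those of replicate 5. Actbeta, the fly activin, had 4 candidates, of which the best had a signal of 71.2 at rank 12112 and was found in replicate 5 alone. The best candidate of mav, which encodes the ligand maverick, had a signal of 61.2 at rank 13998 and was found in replicates 3 and 5, at ranks 27653 and 8084. Its summit lay 153 bp from the start of mav and 4 bp from the start of another annotated gene. None of the 4 candidates of fuss lay near one of its own starts, and the best had a signal of 38.3 at rank 20960 and was found in replicate 6 alone, 443 bp from the start of lncRNA:sphinx.

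The other gene groups are given as counts, to be read against the 67 of 80 protein-coding genes of the chromosome with a candidate near a start (83.8%) and the 21 of 80 with an IDR region there (26.3%). No group was tested against these shares or against another group. The Wnt and Hedgehog effectors pan, lgs and ci all had candidates near starts, 19 in all in or around the genes, with no IDR region and 1 candidate found in all 3 replicates. Of 13 transcription factors, 9 had a candidate near a start and 2 (Sox102F and pho) an IDR region there. Of the Pax6 genes, ey had its best candidate at rank 7419, 834 bp from its start, and this one also counts for myo. The best candidate of toy, at rank 15687, was intergenic and 18266 bp from its start, and its best candidate near a start ranked 17981. Of 12 genes of axon guidance and synapse, 10 had a candidate near a start and 1, PlexA, an IDR region, while PlexB reached a signal of 106 at rank 8235. Of 6 genes listed under muscle and cytoskeleton, 5 had a candidate near a start and 3 (Zyx, Kif3C and Asator) an IDR region. All 7 genes listed under translation, energy and protein turnover had a candidate near a start and 3 (RpS3A, ATPsynbeta and gw) an IDR region. All 6 genes listed under kinases and signalling adaptors had a candidate near a start, and Slip1 an IDR region. The names of these lists do not describe every member. Cals, the gene of a membrane protein of synapses, was counted under muscle and cytoskeleton. Tdg, the gene of a thymine DNA glycosylase, was counted under translation, energy and protein turnover, and PMCA under kinases and signalling adaptors. Some candidates lie between neighbours and count for both, such as the one at rank 8772 shared by ND-49 and Ephrin, and ci, pan and fuss stand in 2 of these groups each.

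In sequence the 365 windows had a median of 34.8% G and C, against 39.3% on the other arms, near the 35.2% of the whole of chromosome 4 (42.2% on the other arms). TATCGATA, the DNA replication-related element, was found on either strand in 17 windows (4.66%, 2.74 to 7.35%), against 1.66% of the candidate windows elsewhere. Windows of the same length laid end to end held it at 1.98% on chromosome 4 and 0.550% on the other arms. Of the 17, 8 lay within 1000 bp of a start, 2 were IDR regions (PlexA and MED26) and 8 lay in mobile elements. CGATA, which TATCGATA contains, was found in 32.6% of the windows and 23.7% elsewhere, with 24.9% and 21.3% of the end-to-end windows. TATAAA was found in 39.7% of the windows and in 38.4% of the end-to-end windows of the chromosome, while on the other arms it was found in 27.7% of the candidates and 21.6% of the end-to-end windows. GAGAG was found in 16.7% of the windows and in 17.4% of the end-to-end windows of the chromosome, and on the other arms in 25.4% and 21.6%.

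Motifs named for the Smad partners of Snoo were rare. The palindrome GTCTAGAC was in 0 of the 365 windows, which allows a share of up to 1.01% (exact 95% interval), and in 0.145% of the candidates elsewhere. The Mad motif GCCGNCGC was also in 0 of the 365 windows, against 2.40% elsewhere, and in 0.680% of the end-to-end windows of chromosome 4 against 2.27% of those of the other arms. The other 6 motifs were TGANTCA of the AP-1 factors, the E-box CACGTG, a second E-box CAGCTG, the Zelda motif CAGGTAG, a core promoter motif with the letters GGTCACAC, and the GATA motif AGATAAG. Of these, CAGCTG was in 4.93% of the windows (8.91% elsewhere, and 4.44% of the end-to-end windows of chromosome 4) and AGATAAG in 1.10% (2.93% elsewhere, and 2.67%). A match is a run of letters and not a measured binding site.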

How the data were processed

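Anti-GFP ChIP-seq was made on sonicated chromatin of whole pupae carrying Snoo-eGFP, with 1 group of 3 biological replicates, as the labels give it. The deposited narrowPeak lists give for each region a signal and a −log10 q-value as the authors' peak caller wrote them, made with a control alignment according to the file listings. Each candidate list held 30000 regions, background included, so numbers per list carry no depth. The aligner, the caller, the IDR threshold and the read depth were not given in the sources used here. Whether replicates came from separate sets of animals is not given either, so the p-values measure the spread between these 3 samples.

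Ranks followed signal within 1 list, with the q-value breaking ties, and signal was not compared between lists. Summits within 150 bp counted as the same region. Starts, exons, names and mobile elements came from the Ensembl annotation, and sequence from the RefSeq assembly, both of the dm6 build. Classes were assigned in the order start (within 1000 bp), exon, intron and intergenic. Intervals are exact Clopper-Pearson 95% intervals, and the only test is an exact sign-flip permutation over replicates. Scripts used python 3.11.15, numpy 2.4.6, scipy 1.17.1, pandas 2.3.3 and matplotlib 3.10.9, and were tested on simulated data. The dm3 lists entered as an alternative.

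Regions, gene lists and motifs were chosen with earlier results of these data known. Of 51 list entries all matched a gene, Thd1 (Tdg) and Arf102F (Arf4) through a synonym. The text names all 24 IDR regions, the 5 best outside the IDR list, the 5 lowest, list members and the genes without or with most candidates. The last were singled out after their values were seen.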

Additional observations from a re-analysis of the deposited data

How the results depend on the processing

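The 5 results of the design were recomputed under 29 alternatives, of which 16 left the value within its interval or kept its direction and 13 moved it, with none reversed. In all 23 that give a value for both, chromosome 4 lay on the same side of the other arms as reported. This includes near-ties for the share near starts, where the reported interval of 40.0 to 50.5% holds the 41.9% of the other arms. With only the strongest summit of each group of overlapping intervals, that share was 41.1% against 40.7%. The IDR share and the median rank in the pooled list come from the same ranking, so they are not separate results. The IDR share of 6.58% was 1.37% for the stronger part of the IDR list by signal, down to its middle rank. Recovery in all 3 replicates (13.7%) was 6.85% with summits within 50 bp, 32.3% within 500 bp, 30.7% by any overlap of intervals and 1.92% among the strongest regions of each replicate. When 1 replicate was left out, recovery in the remaining pair ranged from 19.2% without replicate 5 to 30.4% without replicate 3, and the difference in the share among the strongest ranged from -14.6 to -11.9 percentage points. Among the 3 pairs, the one without replicate 3 moved recovery by the most. The median rank of 20120 was 16107 in the list of replicate 3 and 18638 in that of replicate 5. The share within 1000 bp of a start, 45.2%, was 32.6% within 500 bp, 61.4% within 2000 bp and 74.0% for the 50 candidates found in all 3 replicates. No paired analysis was possible because the samples form 1 group. Depth is unknown, so no limit of detection could be set for regions missing from a list.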

Other observations

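Windows of 100000 bp with a similar share of mobile elements were compared as a description. The 13 windows of chromosome 4 with 15 to 50% of their sequence in elements held 281 candidates per Mb, and 96 such windows of the other arms held 120 per Mb, with a median element share of 20.4% in both. Of those 96, 39 held no candidate and the median was 4 candidates per window, against 0 empty windows and a median of 29 on chromosome 4, so the 120 per Mb came from only some of the windows. In those windows 6.58% of the candidates of chromosome 4 and 18.3% (16.1 to 20.6%) of the candidates of the other arms were in the IDR list, against 22.5% in windows of the other arms with less than 15%. Found in all 3 replicates were 13.7% on chromosome 4, 33.9% in the element-rich windows elsewhere and 38.5% in the rest. The lists of replicates 3, 5 and 6 held 145, 212 and 400 candidates per Mb in the chromosome 4 windows and 121, 117 and 125 per Mb in the element-rich windows elsewhere, so the spread between replicates was not seen there.

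Some genes of chromosome 4 had many candidates. Tdg, which encodes a thymine DNA glycosylase, had 11 in its body or within 1000 bp, of which 5 were found in all 3 replicates. These 5 lay around the neighbouring starts of Tdg and the divergent gene Pur-alpha and count for both genes, and 2 of them matched the same summit of replicate 3. Ank, the gene of ankyrin, also had 11, of which 0 were found in all 3, and Zyx had 11, of which 2 were found in all 3 and 3 in no replicate. The 35 candidates found in no replicate had a median distance of 2799 bp to a start, and the 50 found in all 3 had one of 304 bp.

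The replicate lists of chromosome 4 were also compared directly. Replicate 5 held a summit within 150 bp for 44.4% of the 189 candidates of replicate 3, and 55.0% on the other arms. Replicate 6 held one for 39.7% of them, and 49.9% on the other arms. Of the 277 candidates of replicate 5, 29.6% had one in replicate 3 and 41.9% in replicate 6, compared with 54.9% and 51.6% on the other arms. Of the 523 candidates of replicate 6, 14.9% had one in replicate 3 and 22.0% in replicate 5, compared with 49.8% and 51.8% on the other arms. The lists differ in length on chromosome 4 (189, 277 and 523) but hardly on the other arms (29805, 29723 and 29477). Since a short list can match only part of a longer one, these shares do not separate agreement from list length.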
